A study of Mus musculus with 26 samples.

Results

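Arachidonic acid and prostaglandin E2 were compared directly in mouse intestinal organoids after 3 days of treatment, with the vehicle organoids of the same day beside each gene so that a change in the opposite direction can be told from a weaker change in the same direction. The comparison used the 3 libraries of arachidonic acid (AA, 25 µM) and the 3 libraries of prostaglandin E2 (PGE2, 50 nM) of day 3, which are 6 of the 26 libraries of the series. The 3 vehicle libraries of day 3 gave the reference level, and the 6 libraries of AA and PGE2 at day 1 gave the same contrast in other samples. The organoids were epithelial cultures grown in Matrigel from crypts of C57BL/6 mice. All groups shared a medium with EGF, Noggin and R-spondin, with CHIR-99021, which activates Wnt signalling by inhibiting GSK3, and with the kinase inhibitor Y-27632. The labels do not name the region of the intestine. The treatment protocol names PGE2, whereas the design text names a dimethyl derivative of PGE2, and which compound was added cannot be told from the labels. The concentrations of AA and PGE2 differed, so every difference below is a difference at these 2 doses. The labels do not say whether the 3 libraries of a group came from separate mice or cultures, so p-values measure the spread between these libraries, which may be technical.

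AA is a polyunsaturated fatty acid that cells take up, store in membrane phospholipids, oxidise in mitochondria and peroxisomes, or convert by cyclooxygenases to prostaglandins. PGE2 is one of those products and acts outside the cell, mainly in intestinal epithelium through the receptor EP4 (Ptger4), which raises cAMP and activates protein kinase A and CREB. Fatty acids are also ligands of the PPAR nuclear receptors, which switch on genes of fatty acid oxidation, and polyunsaturated fatty acids lower the activity of SREBP1, which switches on fatty acid desaturases. AA added to a culture can therefore act as PGE2 does, as a fatty acid, or as both, and the comparison of the 2 agents addresses which genes differ between them.

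Total counts per library were between 10100000 and 14600000 at day 3, and levels are given as CPM, the usual depth-scaled count of a gene relative to its library's total, after edgeR's TMM scaling of libraries. On a principal component analysis of the 9 libraries of day 3 the first component (63.1% of the variance) placed AA (3.05 to 5.58) between vehicle (-51.1 to -48.7) and PGE2 (44.6 to 45.8), and the second component (12.3%) set AA (-23.4 to -21.1) apart from PGE2 (11.6 to 14.5) and vehicle (1.15 to 24.2). Vehicle replicate 2 stood apart from the other vehicle libraries on the third component (-26.8 against 13.8 and 21.9). AA replicate 3 had the highest share of rRNA-like reads at day 3 (12.1%) and PGE2 replicate 2 the lowest (5.43%). Markers of epithelium summed to 7720 to 8540 CPM with vehicle, 10700 to 11600 CPM with AA and 13500 to 14100 CPM with PGE2, without overlap, and 0 of 11 were under 1 CPM throughout. Fibroblast and smooth muscle markers summed to 4.81 to 7.30 CPM and 11 of 13 were under 1 CPM in all libraries of day 3, immune markers summed to 0.892 to 2.75 CPM with 12 of 13 under 1 CPM, and endothelial and neural markers summed to 2.87 to 5.94 CPM with 8 of 12 under 1 CPM. In the fibroblast and in the immune list 3 markers were at 0 in all libraries of day 3.

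At day 3 the 2 treatments differed in 5711 of 14850 genes tested (38.5%, adjusted p under 0.05), of which 2695 (18.1%) were higher with AA and 3016 (20.3%) were higher with PGE2. The difference was at least 2-fold in 779 genes, 222 higher with AA and 557 higher with PGE2. The median log2 difference, AA minus PGE2, over all genes tested was -0.0093, and the 3 AA libraries did not overlap the 3 PGE2 libraries in 7045 genes (47.4%). Which direction held more genes depended on the scaling and on single libraries: 2996 were higher with AA and 2763 with PGE2 under DESeq2 size factors, 3178 and 2497 with no filter on low counts, 3138 and 2640 with a filter at 1 CPM, 2628 and 2362 without PGE2 replicate 2, and 3166 and 2660 without vehicle replicate 1.

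Against the same 3 vehicle libraries, 6129 genes (41.3%) were called for AA, 3143 higher and 2986 lower, and 8752 genes (58.9%) were called for PGE2, 4287 higher and 4465 lower. Scaled by total counts alone, the split for AA was 2459 higher and 3903 lower. Because both comparisons use the same vehicle libraries, they were set side by side gene by gene and not correlated. Of the 5711 genes that differed directly, 2340 (41.0%) had moved to the same side of vehicle with both agents and less far with AA, and 185 (3.24%) had moved to the same side and less far with PGE2. Another 2222 genes (38.9%) were called against vehicle for PGE2 alone and 413 (7.23%, or 2.78% of those tested) for AA alone, and 428 (7.49%) for neither. A gene called for 1 agent alone is not shown to have stayed at the vehicle level with the other. The 9139 genes not called directly were 61.5% of those tested. The remaining 123 genes (0.828% of those tested) were called on opposite sides of vehicle, 82 (0.552%) above vehicle with AA and below it with PGE2, and 41 (0.276%) the other way. The smaller class depended on single libraries, with 22 genes without PGE2 replicate 2 and 20 genes without vehicle replicate 1. The larger class held 53 genes when libraries were scaled by total counts alone and 60 without vehicle replicate 3.

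**Figure D1:**
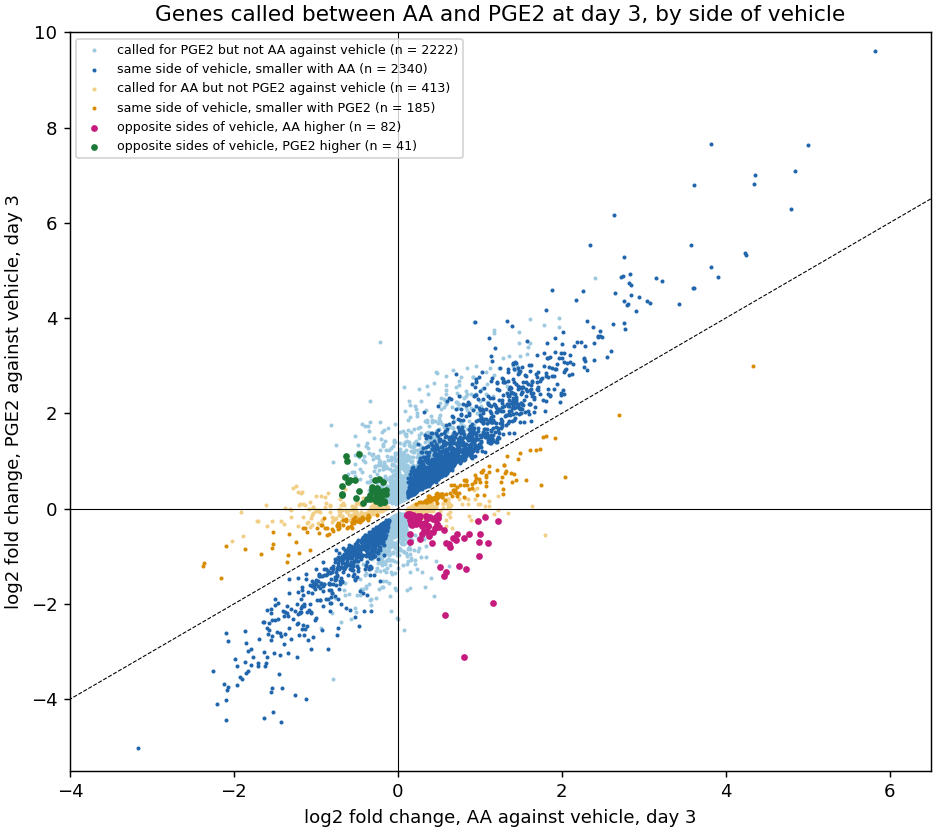
Each point is a gene called between AA and PGE2 at day 3, placed by its log2 fold change against vehicle with AA (horizontal axis) and with PGE2 (vertical axis); the dashed line marks equal change, the 2 axes share the 3 vehicle libraries, and colours give the class, with the 428 genes called for neither agent left out. The largest class lies on the same side of vehicle on both axes and further from 0 with PGE2 (2340 genes), while the 82 and 41 genes of the opposite classes fill the lower right and upper left quadrants near the centre.

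Genes of glycolysis and of the response to low oxygen made up the list with most members above vehicle with AA and below vehicle with PGE2. These genes encode the enzymes that turn glucose into lactate and the proteins that cells make when the transcription factor HIF-1 is stabilised, as it is when oxygen or prolyl hydroxylase activity is low. Of the 24 members, all tested, 22 were higher with AA than with PGE2 and 1, the hexokinase gene Hk1, was higher with PGE2. Over all tested genes the shares were 18.1% and 20.3%. The median log2 difference was 0.74, beside -0.0093 over all genes tested. Against vehicle, 18 members rose and 0 fell with AA, where 21.2% and 20.1% of all tested genes did. With PGE2 3 rose and 15 fell, where 28.9% and 30.1% of all tested genes did, so that 10 were in the opposite class (6 when only the libraries of day 3 were fitted, 8 without vehicle replicate 1).

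Slc16a3, which encodes the lactate exporter MCT4, measured 143, 154 and 136 CPM in the 3 AA libraries, 99.6, 71.2 and 70.1 CPM in the 3 vehicle libraries and 23.7, 44.6 and 32.2 CPM in the 3 PGE2 libraries. The 3 groups did not overlap, with AA highest and PGE2 lowest. For genes named by the size of their difference, the naming rule itself required AA and PGE2 libraries not to overlap. Their non-overlap is therefore no added support, and 47.4% of all tested genes had it. The log2 difference between AA and PGE2 was 2.10 ± 0.176 (SE, adjusted p = 6.29e-07), made up of 0.83 ± 0.162 for AA against vehicle (adjusted p = 0.00101) and -1.26 ± 0.182 for PGE2 against vehicle (adjusted p = 4.57e-05). Egln3, a prolyl hydroxylase that marks HIF proteins for destruction and is itself switched on by HIF, measured 164, 170 and 170 CPM with AA, 96.2, 70.4 and 66.0 with vehicle and 39.7, 56.3 and 46.5 with PGE2. Again no library of one group reached into another, and the direct log2 difference was 1.82 ± 0.126 (adjusted p = 4e-08). Ankrd37, a small ankyrin-repeat protein known as a HIF-1 target, measured 31.4, 27.2 and 32.7 CPM with AA, 17.9, 14.2 and 13.7 with vehicle and 6.33, 12.4 and 9.55 with PGE2, with every AA library above every vehicle library and every vehicle library above every PGE2 library (1.69 ± 0.147, adjusted p = 5.24e-09). Vehicle replicate 1 was the highest vehicle library in all 3 genes.

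The starts of 3 of these genes and of Mucl3, a mucin-like gene taken up below, are shown because the first 3 share a short sequence, ACGTG, a form of the core that HIF binds, and the fourth holds TGACGTCA, the full cAMP response element that CREB binds. Each stretch runs from 250 bases before to 50 bases after the RefSeq start of the gene on build GRCm38.p6, is written 5′ to 3′ on the strand of the gene, and has the motif in capitals where it reads in that direction. Slc16a3 is at chr11:120948817-120949116 on the plus strand, Egln3 at chr12:54203825-54204124 on the minus strand, Ankrd37 at chr8:45999801-46000100 on the minus strand, and Mucl3 at chr17:35643646-35643945 on the minus strand.
Slc16a3: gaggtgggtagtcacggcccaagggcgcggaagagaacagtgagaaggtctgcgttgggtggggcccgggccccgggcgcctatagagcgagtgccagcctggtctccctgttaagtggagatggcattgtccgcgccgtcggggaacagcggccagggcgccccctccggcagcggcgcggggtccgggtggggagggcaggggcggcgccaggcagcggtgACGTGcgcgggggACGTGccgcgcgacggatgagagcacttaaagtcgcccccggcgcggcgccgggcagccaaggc
Egln3: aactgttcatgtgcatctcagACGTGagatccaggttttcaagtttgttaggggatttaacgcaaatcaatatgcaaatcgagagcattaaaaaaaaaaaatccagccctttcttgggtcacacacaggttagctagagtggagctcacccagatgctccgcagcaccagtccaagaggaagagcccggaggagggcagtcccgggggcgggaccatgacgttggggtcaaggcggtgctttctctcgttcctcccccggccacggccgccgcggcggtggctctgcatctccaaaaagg
Ankrd37: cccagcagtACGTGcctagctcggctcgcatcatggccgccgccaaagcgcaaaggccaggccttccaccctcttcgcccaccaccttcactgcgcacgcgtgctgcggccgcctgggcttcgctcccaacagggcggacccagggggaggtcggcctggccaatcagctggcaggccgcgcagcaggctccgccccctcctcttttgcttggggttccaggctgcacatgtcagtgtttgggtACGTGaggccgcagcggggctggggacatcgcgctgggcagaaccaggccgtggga
Mucl3: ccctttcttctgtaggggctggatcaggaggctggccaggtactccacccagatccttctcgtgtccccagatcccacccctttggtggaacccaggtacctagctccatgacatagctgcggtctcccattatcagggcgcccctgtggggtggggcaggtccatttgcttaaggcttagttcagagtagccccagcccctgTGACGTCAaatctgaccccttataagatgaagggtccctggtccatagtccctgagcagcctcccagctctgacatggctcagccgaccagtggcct
The capitals lie 27 and 14 bases before the start in Slc16a3, 229 bases before it in Egln3, 241 and 6 bases before it in Ankrd37 and 47 bases before it in Mucl3. Searched on both strands (CACGT on the other strand), ACGTG was in 16 of the 23 listed glycolysis and hypoxia genes with a promoter entry (69.6%), in 28 of 67 such genes of the class above vehicle with AA and below it with PGE2 (41.8%) and in 6 of 31 of the reverse class (19.4%). It was in 19.6% of the 32851 promoters in the table, or 21.8% of 27025 genes counted by gene as the classes are. Only 10173 of the 14850 tested genes matched an entry, fewer than 80%, so their own share (29.2%) is incomplete. TGACGTCA, which reads the same on both strands, was in 1.79% of all promoters, or 2.03% counted by gene. It was in 48 of 1817 genes (2.64%) of the class of Mucl3, moved to the same side of vehicle and less far with AA. The share over tested genes, incomplete as above, was 3.59%. In the opposite classes it was in 0 of 67 and 0 of 31 genes. Both motifs were chosen after the values were seen, the glycolysis and hypoxia list includes genes known as HIF targets, and a match is a description of these letters and not of binding.

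The enzymes of glycolysis differed by less but in the same order. Gpi1, which interconverts glucose and fructose phosphates, measured 946, 994 and 879 CPM with AA, 850, 742 and 694 with vehicle and 496, 566 and 523 with PGE2, with no overlap between groups (0.83 ± 0.0591, adjusted p = 2.28e-12). Pfkl, the liver form of the committing enzyme phosphofructokinase, measured 295, 309 and 289 CPM with AA, 264, 218 and 217 with vehicle and 153, 182 and 165 with PGE2, also without overlap (0.83 ± 0.0660, adjusted p = 3.5e-10). Pgk1, phosphoglycerate kinase, measured 578, 569 and 587 CPM with AA, 491, 378 and 401 with vehicle and 351, 382 and 368 with PGE2. The AA libraries of Pgk1 lay above all others, whereas the PGE2 libraries overlapped those of vehicle (-0.21 ± 0.0638 against vehicle, adjusted p = 0.00692). Aldoa and Pgam1 also had PGE2 libraries that overlapped vehicle, at log2 differences of -0.18 (adjusted p = 0.0170) and -0.13 (adjusted p = 0.0397). Ldha, the lactate dehydrogenase subunit that makes lactate, was called for AA against vehicle (0.63, adjusted p = 7.77e-09) and not for PGE2 (-0.068, adjusted p = 0.387).

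The 6 members not called for AA against vehicle were Bnip3, Car9, Hk2, Pdk1, Pfkfb3 and Vegfa. Bnip3, a mitochondrial protein of mitophagy, measured 65.6, 68.0 and 61.2 CPM with AA, 61.6, 45.6 and 46.9 with vehicle and 12.7, 22 and 14.3 with PGE2. AA and vehicle overlapped and the 3 PGE2 libraries were the lowest. Vegfa, the endothelial growth factor, stood at 0.96 ± 0.0903 between AA and PGE2 (adjusted p = 1.89e-08), with -0.13 for AA (adjusted p = 0.239) and -1.09 for PGE2 (adjusted p = 5.42e-10) against vehicle. Slc2a1, the main glucose importer GLUT1, rose with both and more with AA (0.53 against 0.26, direct difference 0.27 ± 0.0556, adjusted p = 0.00023). Hk2, a hexokinase that HIF also controls, did not pass (0.11 ± 0.0586, adjusted p = 0.158), and Hk1 rose with both and more with PGE2 (1.33 against 1.96). The transcript of Hif1a itself had the reverse order of Slc16a3, Egln3 and Ankrd37, though not of every member of the list. Hif1a measured 80.2, 81.0 and 84.4 CPM with AA, 84.8, 88.0 and 98.2 with vehicle and 119, 116 and 119 with PGE2. It was below vehicle with AA (-0.14 ± 0.0516, adjusted p = 0.0302) and above it with PGE2 (0.39 ± 0.0499, adjusted p = 7.26e-08).

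**Figure D2:**
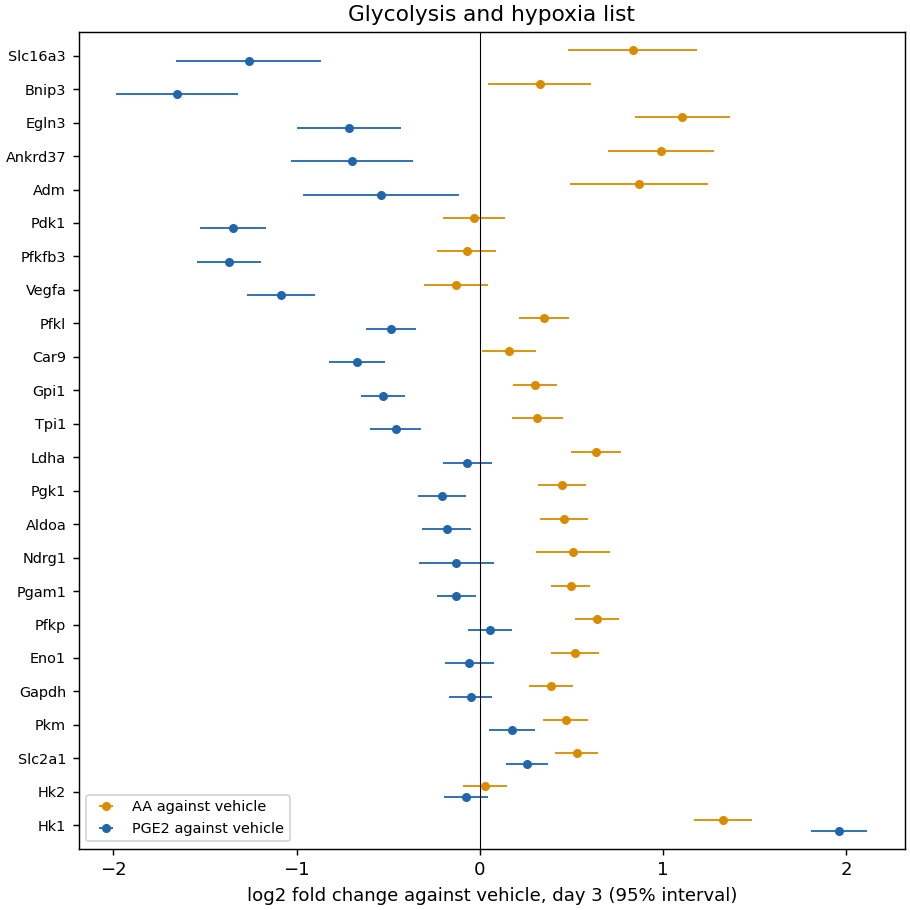
Points are log2 fold changes against vehicle at day 3 for the 24 members of the glycolysis and hypoxia list, AA in orange and PGE2 in blue, with 95% intervals, ordered by the direct difference. For 22 members the AA point lies further right than the PGE2 point and passed the direct test, and Hk1 at the bottom has the reverse order.

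Among other genes of sugar handling, no list of which was tested, some were in the opposite class. Slc2a5, the fructose importer GLUT5, measured 55.7, 69.8 and 51.8 CPM in the 3 AA libraries, 47.4, 40.5 and 34.9 CPM in the 3 vehicle libraries and 15.7, 19.1 and 17.7 CPM in the 3 PGE2 libraries. No library overlapped between groups, which the naming rule required of AA against PGE2. The direct log2 difference was 1.74 ± 0.122 (adjusted p = 8.95e-10). Khk and Tkfc, enzymes that break fructose down and were chosen after their values were seen, were in the same class. Khk, ketohexokinase, measured 98.1, 102 and 91.6 CPM with AA, 89.2, 88.1 and 84.1 with vehicle and 51.1, 53.8 and 56.7 with PGE2 (0.85 ± 0.0535, adjusted p = 1.34e-13). Tkfc, triokinase, measured 371, 403 and 309 CPM with AA, 279, 267 and 256 with vehicle and 179, 196 and 197 with PGE2 (0.92 ± 0.0656, adjusted p = 4.35e-11). In both enzymes every AA library lay above every vehicle library and every vehicle library above every PGE2 library. Fbp1, fructose bisphosphatase of gluconeogenesis, was among the 10 genes with the largest difference in favour of AA, at 11.9, 13.1 and 11.1 CPM with AA, 14.9, 10.5 and 10.1 with vehicle and 1.73, 2.75 and 2.64 with PGE2. There AA did not pass against vehicle (0.0012 ± 0.146, adjusted p = 0.996), and PGE2 was lower than either.

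Genes of fatty acid use were higher with AA in part. Of 33 tested members of the PPAR target and fatty acid oxidation list, of 37 listed, 19 were higher with AA and 6 were higher with PGE2, at a median of 0.23. Among all tested genes 18.1% and 20.3% were. Fabp1, the liver-type fatty acid binding protein, measured 196, 203 and 177 CPM with AA, 85.3, 81.0 and 79.9 with vehicle and 59.1, 73.7 and 71.3 with PGE2, with 1.22 ± 0.0771 for AA and -0.27 ± 0.0814 for PGE2 against vehicle. No library of Fabp1 overlapped between groups, and the direct log2 difference was 1.49 ± 0.0776 (adjusted p = 1.94e-12). Hadhb, a subunit of the mitochondrial trifunctional protein of β-oxidation, was also in the opposite class (0.42 ± 0.0487, adjusted p = 4.08e-08).

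Some other members of that list rose with both agents. Cpt1a, which admits long-chain fatty acids to mitochondria, rose more with AA (0.99 against 0.63, direct difference 0.36 ± 0.0565). Angptl4, a PPAR target that inhibits lipoprotein lipase and that low oxygen also induces, rose more with PGE2 (0.98 against 1.62, direct difference -0.64 ± 0.0802, adjusted p = 2.3e-07). Cd36, a fatty acid importer, and Ppard, a PPAR gene itself, were also higher with PGE2, at -0.75 (adjusted p = 0.0448) and -0.48 (adjusted p = 1.18e-06). The acyl-CoA thioesterase Acot1 fell with both and less with AA, at 25.4, 24.0 and 24.4 CPM with AA, 38.3, 33.8 and 38.3 with vehicle and 8.63, 8.60 and 8.06 with PGE2. Pdk4 did not pass between the agents (-0.43 ± 0.391, adjusted p = 0.413), at levels under 1 CPM.

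Glutathione and NRF2 target genes, which handle electrophiles and peroxides, were higher with AA in 15 of 24 members and higher with PGE2 in 3 (median 0.29). Directly, 18.1% and 20.3% of all tested genes were. Against vehicle 23 members rose with AA and 18 rose with PGE2, and 9 had moved the same way with both and less with PGE2. Of all tested genes 21.2% rose with AA, 28.9% rose with PGE2 and 1.25% were in that last class. Gstm1, a glutathione transferase of the mu class, was 1 of 5 members in the opposite class, at 430, 424 and 341 CPM in the 3 AA libraries, 290, 300 and 301 CPM in the 3 vehicle libraries and 171, 180 and 188 CPM in the 3 PGE2 libraries, with no overlap between groups (1.15 ± 0.0629, adjusted p = 6.41e-14). Cbr3, a carbonyl reductase, measured 39.6, 36.4 and 38.9 CPM with AA, 20.3, 19.6 and 18.3 with vehicle and 15, 17.1 and 16.3 with PGE2 (1.25 ± 0.0734, adjusted p = 2.76e-14). Gsr, glutathione reductase, and Gsta3, a transferase of the alpha class, differed by 0.57 ± 0.0455 and 0.66 ± 0.0575. Gclc, the catalytic subunit of glutathione synthesis, was higher with PGE2 (-0.39 ± 0.0431) while its modifier Gclm was higher with AA (0.38 ± 0.0550). Genes of the transferase families share sequence, and reads between near-identical copies may have been split.

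**Figure D3:**
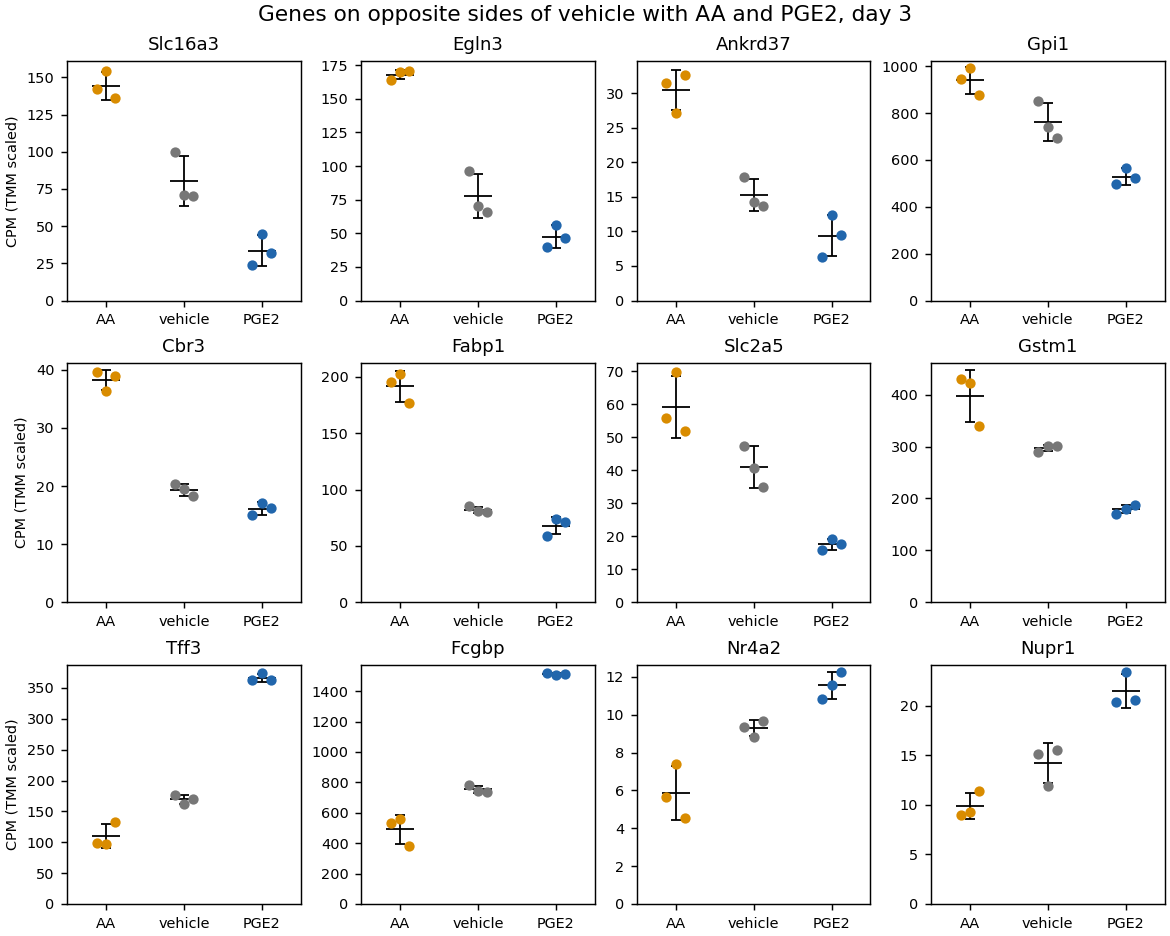
Dots are single libraries at day 3 (n = 3 per group) in CPM after TMM scaling on linear axes that start at 0, with the mean and SD as black bars, for 12 genes of the opposite classes. The first 8 genes are highest with AA and lowest with PGE2, and Tff3, Fcgbp, Nr4a2 and Nupr1 have the reverse order.

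Most goblet cell genes tested were higher with PGE2, and 2 of them, Tff3 and Fcgbp, were below vehicle with AA and above it with PGE2. Goblet cells are the mucus-secreting cells of the gut. Of 15 tested members, of 17 listed, 13 were higher with PGE2 and 1, the sialyltransferase St3gal6, was higher with AA, at a median of -1.17. Directly, 20.3% of all tested genes were higher with PGE2 and 18.1% with AA. Against vehicle 10 rose and 1 fell with PGE2, and 3 rose and 4 fell with AA. Of all tested genes 28.9% rose and 30.1% fell with PGE2, and 21.2% rose and 20.1% fell with AA. In these bulk libraries fewer cells of a type cannot be told apart from less RNA per cell. Tff3, the trefoil peptide packed with goblet cell mucus, measured 98.6, 97.9 and 132 CPM in the 3 AA libraries, 177, 163 and 170 CPM in the 3 vehicle libraries and 364, 374 and 363 CPM in the 3 PGE2 libraries. The groups did not overlap, with AA lowest and PGE2 highest, where the naming rule required AA and PGE2 to be apart. The direct log2 difference was -1.74 ± 0.0901 (adjusted p = 6.78e-11), from -0.63 ± 0.0916 for AA (adjusted p = 2.46e-05) and 1.11 ± 0.0873 for PGE2 (adjusted p = 4.98e-09) against vehicle.

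Fcgbp, a large mucus protein, followed the same order at 532, 560 and 384 CPM with AA, 780, 746 and 737 with vehicle and 1519, 1508 and 1512 with PGE2, and its lowest AA value came from replicate 3. Muc2, the main gel-forming mucin, measured 23.4, 23.6 and 14.2 CPM with AA, 16.3, 20.4 and 13.4 with vehicle and 82.6, 82.0 and 77.7 with PGE2. It rose with PGE2 (2.27 ± 0.192, adjusted p = 1.9e-07) and did not pass for AA (0.28 ± 0.229, adjusted p = 0.367), where AA and vehicle overlapped. Zg16, a lectin of the mucus layer, rose with both and more with PGE2, at 7.35, 8.47 and 13.4 CPM with AA, 2.88, 2.57 and 2.44 with vehicle and 64.0, 66.0 and 61.0 with PGE2. Atoh1 and Spdef, the transcription factors that commit cells to the secretory and goblet fates, were higher with PGE2 than with AA by -1.08 ± 0.134 and -1.17 ± 0.0992 as AA minus PGE2, and neither passed for AA against vehicle (adjusted p = 0.125 and 0.813).

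The other genes below vehicle with AA and above it with PGE2 were of mixed kind. Nupr1, a stress-induced chromatin protein, measured 8.95, 9.27 and 11.4 CPM with AA, 15.1, 11.9 and 15.6 with vehicle and 20.4, 23.4 and 20.6 with PGE2, with no overlap between the groups (-1.12 ± 0.112, adjusted p = 2.34e-09). Ano7, a member of the anoctamin family, differed by -1.63 ± 0.120 and Krt15, a keratin of basal cells, by -1.17 ± 0.179. Csf1, the growth factor of macrophages, was in the class by a narrow margin on the AA side (adjusted p = 0.0480 against vehicle). Wls, chosen after its values were seen, acts in Wnt secretion, and Rnf43 in the removal of Wnt receptors. Wls measured 41.3, 39.2 and 46.8 CPM with AA, 57.2, 49.1 and 55.2 with vehicle and 57.3, 63.7 and 64.9 with PGE2, and Rnf43 measured 123, 129 and 116 CPM with AA, 138, 151 and 138 with vehicle and 152, 157 and 156 with PGE2, with small differences between all groups (-0.54 ± 0.0669 and -0.34 ± 0.0487).

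Genes that cAMP and CREB induce were in part lower with AA than with PGE2. Of 23 tested genes of the cAMP and CREB early response list, 13 were higher with PGE2 and 1, Ppargc1a, was higher with AA (median -0.42). Directly, 20.3% of all tested genes were higher with PGE2 and 18.1% with AA. Against vehicle 9 rose with AA and 15 with PGE2, where 21.2% and 28.9% of all tested genes did. Nr4a1, an immediate early nuclear receptor, measured 8.88, 9.27 and 9.27 CPM with AA, 7.57, 7.17 and 7.03 with vehicle and 21.8, 20.4 and 22 with PGE2, with all AA libraries above vehicle and below PGE2. Its relative Nr4a2 was in the opposite class, at 5.68, 7.38 and 4.56 CPM with AA, 9.37, 8.85 and 9.65 with vehicle and 10.8, 11.6 and 12.3 with PGE2 (-1.0 ± 0.129, adjusted p = 2.65e-07). Fos, a subunit of AP-1, rose with both and more with PGE2 (0.74 against 1.71, direct difference -0.97 ± 0.0747). Pde10a, a phosphodiesterase that degrades cyclic nucleotides, reached 2.38, 2.02 and 2.37 CPM with PGE2 and no more than 0.498 CPM in any AA or vehicle library of that day. Of those libraries only the PGE2 ones held enough reads for the low-count filter, so these values describe Pde10a and support no comparison. Ppargc1a, a coactivator of mitochondrial genes that CREB also controls, stood above vehicle with AA and below it with PGE2, at 16.1, 14.5 and 11.2 CPM with AA, 11.1, 10.4 and 10.6 with vehicle and 7.97, 8.89 and 8.13 with PGE2.

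Genes that make, carry and remove prostaglandins also differed. 9 of 17 tested genes of that list, of 27 listed, were higher with PGE2 and 3 were higher with AA. Over all tested genes 20.3% and 18.1% were. Ptgs2, the inducible cyclooxygenase, measured 7.35, 6.88 and 8.66 CPM in the 3 AA libraries, 3.24, 3.10 and 4.22 CPM in the 3 vehicle libraries and 15.2, 15.9 and 15.4 CPM in the 3 PGE2 libraries, so that AA lay between vehicle and PGE2 without overlap (-1.02 ± 0.116, adjusted p = 2.87e-08). Slco2a1, which takes prostaglandins into cells, measured 5.60, 7.78 and 4.56 CPM with AA, 2.96, 2.65 and 2.25 with vehicle and 22.3, 22.1 and 23.8 with PGE2, in the same order. Hpgd, which inactivates PGE2, was higher with PGE2 than with either other group (-0.67 ± 0.133 as AA minus PGE2, adjusted p = 0.000297) and AA did not pass against vehicle (adjusted p = 0.613). Ptgs1, the constitutive cyclooxygenase and a gene of tuft cells, differed by -1.94 ± 0.273. The receptor gene Ptger4 did not pass between the agents (-0.18, 95% interval -0.36 to 0.0018, adjusted p = 0.112).

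The largest class of genes that differed, with 2340 members, had moved to the same side of vehicle with both agents and less far with AA, and it held 12 genes of the stem cell list. Crypt base columnar stem cells divide at the crypt base under Wnt signalling and renew the epithelium. Of 20 members, 13 were higher with AA and 3 with PGE2 (median 0.49), and 12 had fallen with both and less with AA. Among all tested genes 18.1% were higher with AA and 20.3% with PGE2, and 15.8% were in the class of 2340. Olfm4, a secreted stem cell marker, measured 246, 239 and 287 CPM in the 3 AA libraries, 1100, 1011 and 1189 CPM in the 3 vehicle libraries and 77.5, 68.6 and 58.3 CPM in the 3 PGE2 libraries. AA lay between the other groups without overlap (1.92 ± 0.0967, adjusted p = 4.99e-11). Lgr5, the R-spondin receptor that marks these cells, measured 39.4, 43.2 and 39.0 CPM with AA, 148, 142 and 122 with vehicle and 16.8, 18.3 and 12.8 with PGE2 in the same order, and its log2 difference was 1.34 ± 0.104 (adjusted p = 2.31e-10). Nrn1, a small membrane-anchored protein in the list, differed by 2.35 ± 0.196 and was among the 10 largest differences in favour of AA. Ascl2, the Wnt-driven transcription factor of these cells, fell with PGE2 (-0.72, adjusted p = 3.74e-05) and did not pass for AA (-0.12, adjusted p = 0.481). Sox9, a factor of crypt progenitors, fell with AA (-0.58 ± 0.0650, adjusted p = 2.12e-08) and did not pass for PGE2 (-0.027, adjusted p = 0.733). Prom1, the surface protein CD133, rose with PGE2 alone (0.94, against -0.067 with adjusted p = 0.243 for AA).

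Genes of gastric epithelium, which the intestine does not normally express at high levels, included several of the largest differences in favour of PGE2. All 15 of the 15 tested members, of 20 listed, were higher with PGE2, at a median of -1.62. Members near 0 in vehicle passed the filter on low counts only through treated libraries, so the count and median describe the list and support no comparison. Mucl3, whose promoter is given above, measured 8.22, 8.08 and 8.58 CPM in the 3 AA libraries, 1.01, 0.177 and 0.750 CPM in the 3 vehicle libraries and 72.7, 73.2 and 81.2 CPM in the 3 PGE2 libraries. Tff1, the trefoil peptide of stomach mucus, measured 2.33, 2.69 and 3.48 CPM with AA, 0.216, 0.442 and 0.750 with vehicle and 33.0, 31.3 and 33.4 with PGE2. In both genes AA was above every vehicle library and far below PGE2, with log2 differences between the agents of -3.19 ± 0.0895 and -3.52 ± 0.138. Gkn1, a secreted protein of the stomach lining, measured 1.02, 1.20 and 1.70 CPM with AA and 20.7, 19.6 and 16.5 CPM with PGE2, while vehicle libraries held 0 to 0.144 CPM, too few reads for a fold change. Ctse, the protease cathepsin E, differed by -2.38 ± 0.211.

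Most tested genes of fetal-like and regenerating epithelium had the same order, with PGE2 furthest from vehicle. Of 23 tested genes of fetal-like and regenerating epithelium, 21 were higher with PGE2 and 0 were higher with AA (median -0.76). Among all tested genes 20.3% and 18.1% were. Il33, an alarm cytokine in that list, measured 17.8, 22.9 and 22.3 CPM with AA, 3.5, 2.39 and 3.56 with vehicle and 90.5, 90.3 and 93.5 with PGE2, without overlap (-2.13 ± 0.0772, adjusted p = 4.3e-19). Msln, mesothelin, and Clu, a chaperone of revival stem cells, differed by -1.12 ± 0.0491 and -0.76 ± 0.0807. Ly6a, the marker Sca-1, was close between the agents, at 161, 162 and 200 CPM with AA and 196, 201 and 201 CPM with PGE2, and its call (adjusted p = 0.0330) was lost under 10 of 15 alternatives (adjusted p up to 0.176). Of 18 tested genes of stratified epithelium, of 29 listed, 12 were higher with PGE2 and 0 with AA. As in the gastric list, members near 0 in vehicle may have passed the low-count filter through treated libraries alone, so this count supports no comparison. Dsg3, the desmosome cadherin of skin and squamous lining, measured 16.1, 12.9 and 15.5 CPM with AA, 2.31, 1.5 and 2.44 with vehicle and 63.3, 61.0 and 66.1 with PGE2 (-2.09 ± 0.0748, adjusted p = 4.09e-19).

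Genes of contact with the matrix had the same order. 17 of 22 tested laminin, integrin and basement membrane genes were higher with PGE2 and 0 with AA (median -0.57). Over all tested genes 20.3% and 18.1% were, which are also the shares to set beside the next lists. Lama3, the α chain of laminin-332, measured 9.17, 9.37 and 7.65 CPM with AA, 3.60, 3.54 and 4.78 with vehicle and 35.8, 38 and 35.8 with PGE2, and Itgb4, the integrin chain that binds it, measured 376, 400 and 339 CPM with AA, 225, 234 and 233 with vehicle and 694, 688 and 730 with PGE2. In both genes AA lay between vehicle and PGE2 without overlap. 11 of 15 YAP and TEAD target genes were higher with PGE2, of which Ptpn14 differed by -0.91 ± 0.0727 and F3, tissue factor, by -0.83 ± 0.0719, and Dlc1 was higher with AA at levels near 1 CPM. 10 of 20 genes of the EGF family and its feedback were higher with PGE2 and 2 with AA. Egfr, the receptor, measured 85.6, 85.1 and 82.6 CPM with AA, 74.5, 74.2 and 74.2 with vehicle and 135, 142 and 134 with PGE2, and the ligand Ereg differed by -0.56 ± 0.0717. 8 of 12 tight junction genes were higher with PGE2, led by Cldn18 (-1.62 ± 0.137), which is also in the gastric list, and Cldn4 (-0.88 ± 0.0708).

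Cell division genes were higher with AA throughout their list. All 24 of 24 proliferation genes were higher with AA than with PGE2, by 0.22 (Mki67) to 0.49 (Bub1b) and a median of 0.34. Directly, 18.1% of all tested genes were higher with AA and 20.3% with PGE2. Against vehicle 3 rose and 9 fell with AA, and 0 rose and 22 fell with PGE2. Of all tested genes 21.2% rose and 20.1% fell with AA, and 28.9% rose and 30.1% fell with PGE2. Top2a, the topoisomerase of dividing cells, measured 522, 486 and 472 CPM with AA, 647, 593 and 657 with vehicle and 376, 374 and 369 with PGE2, with AA between vehicle and PGE2. The share of histone reads moved with this list, at 0.557% to 0.614% of counts with vehicle, 0.464% to 0.636% with AA and 0.268% to 0.360% with PGE2, and its part in the result was not tested. Of 18 DNA methylation and Polycomb genes, 9 were higher with AA and 1 with PGE2. Dnmt3a, a de novo DNA methyltransferase, measured 56.8, 63.0 and 47.0 CPM with AA, 71.0, 81.0 and 74.0 with vehicle and 34.2, 37.0 and 37.4 with PGE2 (0.61 ± 0.0745, adjusted p = 1.42e-07).

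**Figure D4:**
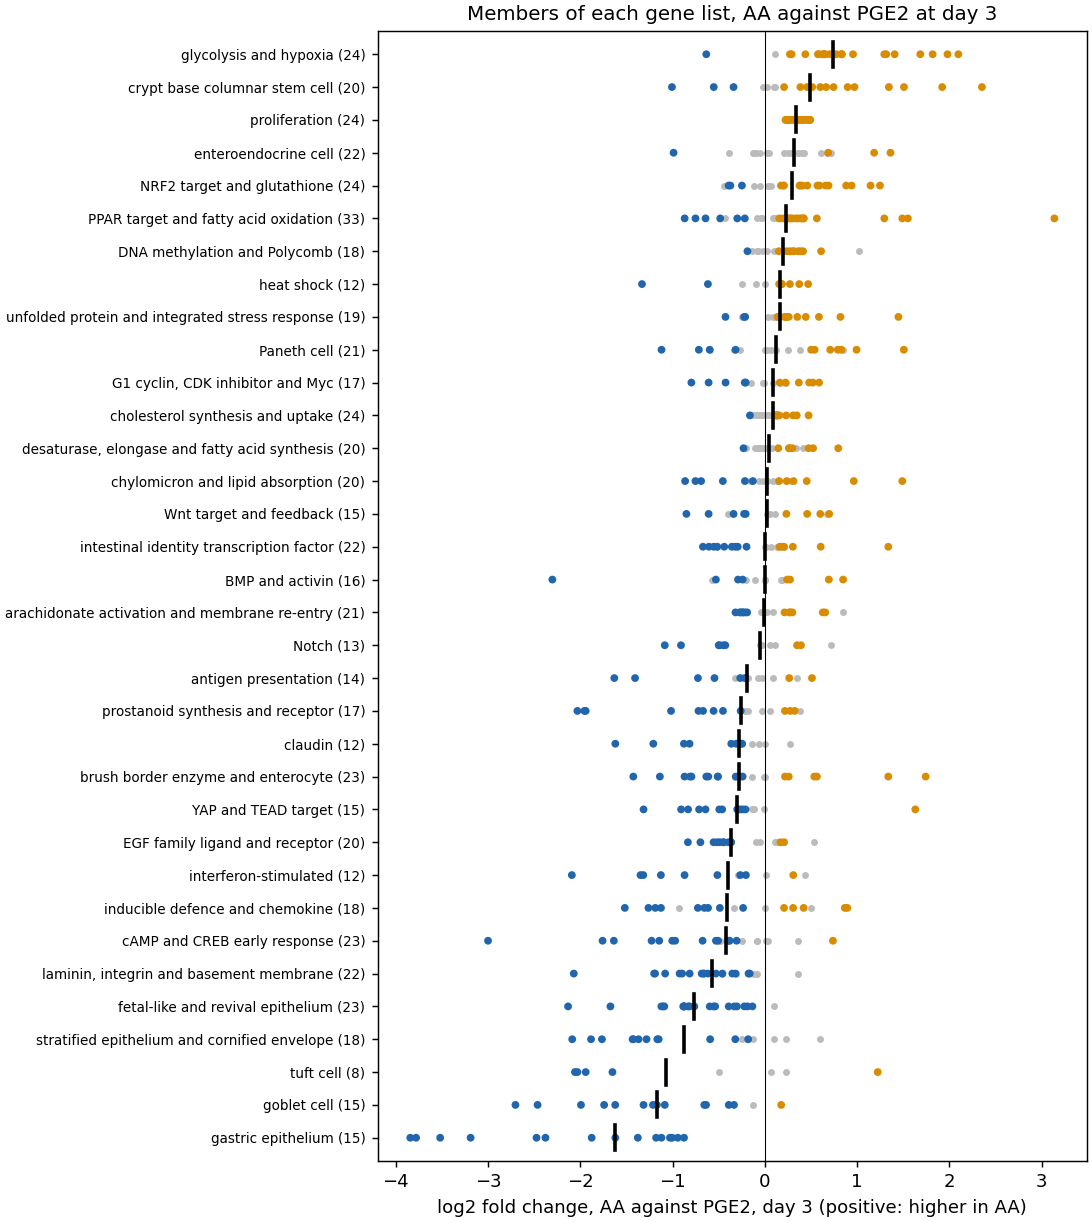
Points are the log2 differences, AA minus PGE2, of the tested members of each gene list at day 3 (number tested in brackets), orange where higher with AA, blue where higher with PGE2 and grey where not called, with the list median as a black bar. In glycolysis and hypoxia 22 of 24 points are orange (median 0.738), and in proliferation all 24 are.

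Genes that AA moved further than PGE2 on the same side of vehicle were fewer, at 185 (1.25% of those tested). Isx, an intestine-specific homeobox factor that retinoic acid induces and that represses carotenoid uptake, measured 17.6, 22.9 and 24.2 CPM in the 3 AA libraries, 1.01, 0.885 and 1.31 CPM in the 3 vehicle libraries and 6.65, 9.83 and 8.87 CPM in the 3 PGE2 libraries. Both agents lay above every vehicle library, and every AA library lay above every PGE2 library (1.34 ± 0.132, adjusted p = 1.81e-09). Adh6a, an alcohol dehydrogenase, measured 36.1, 33.0 and 31.6 CPM with AA, 9.88, 10.3 and 9.84 with vehicle and 12.7, 14.4 and 15.2 with PGE2, Cyp2s1, a cytochrome P450, measured 70.0, 75.5 and 61.1 CPM with AA, 30.1, 26.0 and 28.3 with vehicle and 32.0, 39.0 and 34.1 with PGE2, and both had the same order as Isx. Aldh1a1, which makes retinoic acid from retinal, rose by 1.29 ± 0.0545 with AA and 0.41 ± 0.0558 with PGE2. Apoc3, an apolipoprotein of chylomicrons, rose more with AA (0.96 ± 0.139) and Apoa1, another apolipoprotein, rose more with PGE2 (-0.86 ± 0.0505). On the falling side, Thbs1, the matrix glycoprotein thrombospondin, measured 27.9, 28.9 and 27.3 CPM with AA, 77.3, 75.8 and 88.9 with vehicle and 58.7, 57.9 and 56.4 with PGE2, with the AA libraries the lowest (-1.04 ± 0.0687, adjusted p = 3.5e-13).

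The enterocyte genes were divided. Of 23 tested brush border and enterocyte genes, 6 were higher with AA and 13 with PGE2. Among all tested genes 18.1% and 20.3% were. Slc15a1, the peptide transporter, and Ace, angiotensin-converting enzyme, were higher with PGE2 (-1.42 ± 0.0834 and -1.14 ± 0.0843), and Sis, sucrase-isomaltase, was higher with AA (0.56 ± 0.0539). Alpi, intestinal alkaline phosphatase, measured 518, 521 and 413 CPM with AA, 122, 119 and 114 with vehicle and 449, 484 and 515 with PGE2. Both agents were above vehicle and overlapped each other, with a direct log2 difference of 0.0028 and a 95% interval of -0.14 to 0.15. Alpi was 1 of 6 genes named for a difference nearest 0 among those at least 2-fold from vehicle with both agents. The others were Bmp2, a ligand of the villus (95% interval -0.23 to 0.22), Anxa13, an intestinal annexin (-0.11 to 0.10), Bcl2, which blocks cell death (-0.24 to 0.25), Mmp23, a protease (-0.37 to 0.38), and the pseudogene Zfp862-ps (-0.51 to 0.51). These genes were picked for small differences, so the intervals describe them and test nothing.

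Enteroendocrine, Paneth and tuft cells are the other secretory and sensory cells of this epithelium. Of 22 tested enteroendocrine genes, 3 were higher with AA and 1, Reg4, with PGE2, although 19 had fallen with AA and 20 with PGE2 against vehicle. Over all tested genes 18.1% and 20.3% were higher directly, and 20.1% and 30.1% fell. The count in favour of AA was 6 without PGE2 replicate 2. Gip, the incretin hormone of K cells, measured 3.71, 4.39 and 4.33 CPM with AA, 10.8, 7.43 and 8.15 with vehicle and 1.73, 2.10 and 1.02 with PGE2, and Gcg, the precursor of GLP-1, did not pass (0.045 ± 0.318, adjusted p = 0.931). Chga, a granule protein of these cells, also did not pass (-0.13 ± 0.149, adjusted p = 0.536). Of 21 tested Paneth cell genes, 7 were higher with AA, among them 6 defensin genes whose near-identical copies make their counts uncertain, and 4 were higher with PGE2. Lyz1, the lysozyme of Paneth cells, fell with both and did not pass between them (0.067 ± 0.0741, adjusted p = 0.515). Of 8 tested tuft cell genes, of 15 listed, 4 were higher with PGE2 and 1, the interleukin-25 receptor gene Il17rb, was higher with AA (median -1.07).

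Genes of lipid synthesis were called directly about as often as the 38.5% of all genes tested. Of 20 tested desaturase, elongase and fatty acid synthesis genes, 7 were higher with AA and 1, Srebf1, with PGE2, while 12 had fallen with AA and 14 with PGE2. Of all tested genes 20.1% fell with AA and 30.1% with PGE2 against vehicle. Directly, 18.1% were higher with AA and 20.3% with PGE2, which are also the shares to set beside the cholesterol genes below. Fads1, the desaturase that completes AA synthesis, measured 83.0, 79.5 and 71.1 CPM in the 3 AA libraries, 231, 215 and 230 CPM in the 3 vehicle libraries and 47.0, 46.6 and 41.1 CPM in the 3 PGE2 libraries. It fell with both and further with PGE2 (0.80 ± 0.0612, adjusted p = 9.63e-12). Fads2, the desaturase before it, differed by 0.27 ± 0.0499. Scd2, a stearoyl-CoA desaturase, and Fasn, fatty acid synthase, did not pass (-0.077 ± 0.0699 and -0.061 ± 0.0974, adjusted p = 0.419 and 0.672). 9 of 24 cholesterol genes were higher with AA and 1, Ebp, with PGE2, at most by 0.47 on the log2 scale for Insig1, a brake on this pathway. The first count was 4 with total counts alone, without AA replicate 1 or without PGE2 replicate 1, and 5 without AA replicate 2 or without PGE2 replicate 3.

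In the remaining lists the direction differed from list to list. Over all tested genes 18.1% were higher with AA and 20.3% with PGE2, and several of these lists were near those shares. 8 of 12 tested interferon-stimulated genes, of 22 listed, and 6 of 14 antigen presentation genes were higher with PGE2, against 1 and 2 with AA. The summed immune cell markers moved with these lists, at 0.892 to 1.68 CPM with vehicle, 1.56 to 1.98 CPM with AA and 2.15 to 2.75 CPM with PGE2, with 12 of 13 markers under 1 CPM in all libraries of day 3, and their part in the result was not tested. 9 of 18 defence and chemokine genes were higher with PGE2, among them the oxidase Duox2 (-1.12 ± 0.0938), and 5 were higher with AA, among them Pigr, the carrier of secreted antibodies (0.87 ± 0.0527). Among genes of protein folding stress and the integrated stress response 10 of 19 were higher with AA, led by Trib3, a pseudokinase induced by ATF4 (1.45 ± 0.144), and 3 with PGE2. Heat shock genes were split 7 and 2 of 12, AA first, and the count for AA was 4 when only the libraries of day 3 were fitted. The split was 6 and 9 of 22 for intestinal identity factors, 4 and 5 of 15 for Wnt target and feedback genes, 4 and 4 of 16 for BMP and activin genes, 2 and 6 of 13 for Notch genes, 6 and 5 of 17 for G1 cyclin, CDK inhibitor and Myc genes, 6 and 6 of 20 for chylomicron and lipid absorption genes, and 6 and 7 of 21 for genes of arachidonate activation and membrane re-entry, in each case AA first. Of the 4 rRNA-like and 10 mitochondrially encoded transcripts listed and tested, mt-Nd6 alone passed. Apart from the enteroendocrine count in favour of AA given above, counts of 4 or fewer in the lists moved by at most 2 members under the alternatives.

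The same contrast at day 1, in libraries that the comparison at day 3 does not use, called 4119 genes (27.7%), 1671 higher with AA and 2448 higher with PGE2 (2570 and 1746 when scaled by total counts alone). Of the 2340 genes moved less far by AA on the same side of vehicle at day 3, 1518 (64.9%) were called in the same direction at day 1. Of the 82 genes above vehicle with AA and below it with PGE2, 42 (51.2%) were called in that direction at day 1, 4 in the other direction and 36 in neither. Of the 41 genes of the reverse class, 27 (65.9%), 1 and 13 were. Both shares stood above the 11.3% of all tested genes called higher with AA and the 16.5% called higher with PGE2 at day 1. The other classes of genes called directly at day 3 had 18.9% to 64.9% called in the same direction. Standing above all tested genes is therefore not particular to the opposite classes. Genes on opposite sides of vehicle on both days were 6, all above vehicle with AA and below it with PGE2, and they included Aadac, an arylacetamide deacetylase, Adh1, an alcohol dehydrogenase, Fabp1, Hadhb and Cbr3. They were 7.32% of the 82 genes of day 3 and 20.0% of the 30 genes in that class at day 1. No gene of the reverse class was in it on both days.

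As a list, the glycolysis and hypoxia genes did not have this order at day 1. Then 3 members were higher with AA and 9 with PGE2, at a median of -0.087. Over all tested genes 11.3% and 16.5% were at day 1. Slc16a3 differed by -0.27 ± 0.380 at day 1 (adjusted p = 0.671), and the change from day 1 to day 3 was itself called (2.36 ± 0.428, adjusted p = 0.00340). Egln3 differed by -0.13 ± 0.166 at day 1, with a change of 1.95 ± 0.209 (adjusted p = 3.1e-05). In the proliferation list 2 members were higher with AA and 3 with PGE2 at day 1, at a median of -0.022. Some lists had their order already at day 1, with goblet genes 0 and 13 of 15, fetal-like genes 0 and 19 of 23 and stem cell genes 13 and 2 of 20, in each case AA first. Gastric genes were 0 and 10 of 15, but the limit of the low-count filter given above holds here too, so that count supports no comparison. In others the counts leaned the other way at day 1. Brush border and enterocyte genes were 12 and 4 of 23 at day 1 (median 0.36), against 6 and 13 at day 3 (median -0.28). Paneth cell genes were 1 and 11 of 21 at day 1 (median -0.73), against 7 and 4 at day 3 (median 0.12). Of those 7, 6 are the defensin genes whose counts are uncertain. Enteroendocrine genes were 1 and 6 of 22 at day 1, against 3 and 1 at day 3. As 18 of them were not called at day 3, no order is shown for them on that day. Fmo1, a flavin monooxygenase, had a difference at day 1 (2.40 ± 0.343) whose change by day 3 did not pass (adjusted p = 0.574). Over all genes the difference between the agents changed between the days in 1473 (9.92%), 770 (5.19%) upward and 703 (4.73%) downward, or 314 and 1331 when scaled by total counts alone, which shifted the median of all genes from -0.00043 to -0.106.

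**Figure D5:**
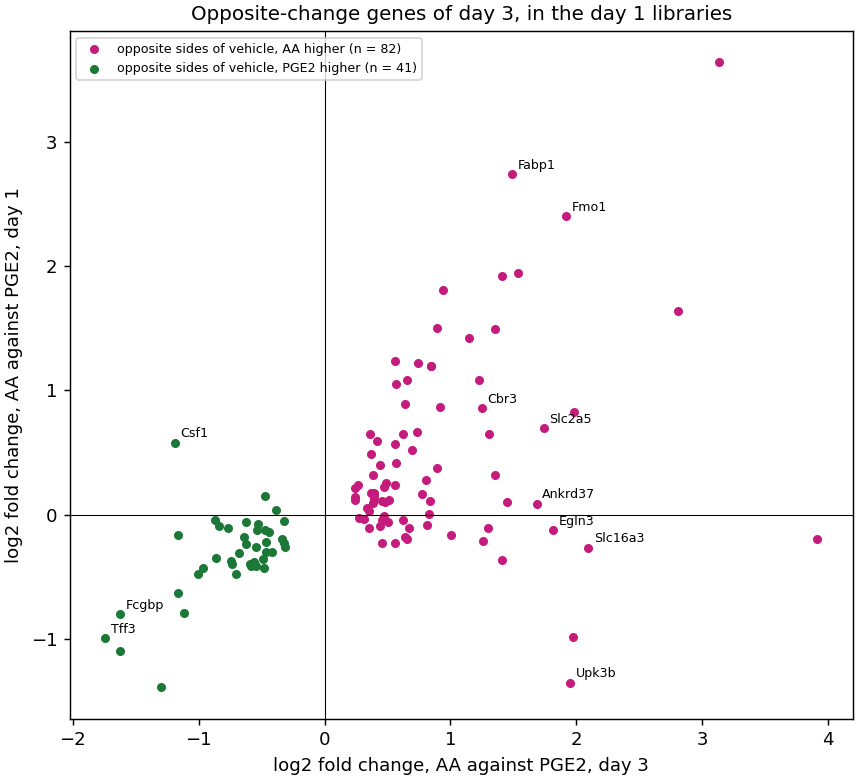
Points are the 82 (magenta) and 41 (green) genes of the opposite classes of day 3, with the log2 difference AA minus PGE2 at day 3 on the horizontal axis and at day 1, in other libraries, on the vertical axis. Fabp1 and Fmo1 are high on both axes, while Slc16a3, Egln3 and Ankrd37 lie near 0 at day 1, and Csf1 is on opposite sides of 0 on the 2 days.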

How the data were processed

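RNA from mouse intestinal organoids was extracted with Trizol and made into libraries with a directional kit, per the labels' protocols. The authors deposited a table of raw counts per gene, and the submitters' processing notes name cutadapt, STAR, DESeq2 and limma 3.46 without roles, and a build, GRCh38.p6, that is a human assembly although the gene identifiers are mouse. The counting program and the strand setting are not stated in the labels or file headers, so overlapping and antisense genes cannot be told apart. Of 55385 identifiers 55144 matched a gene name, and the other 241 held 0.00244% of counts. The 18 libraries of days 1 and 3 (6 groups of 3) were fitted together in edgeR 4.0.16 (R 4.3.3) with its quasi-likelihood test, robust estimates, the default low-count filter by group (14850 genes left) and TMM factors, with 12 residual degrees of freedom. P-values were adjusted by Benjamini-Hochberg over all 14850 genes for each contrast, and adjusted p under 0.05 was called. Fold changes are log2 with standard errors derived from the test statistic. A direct call was classed by its calls against vehicle. The low-count filter keeps a gene that is high in 1 group alone, so such a member of a list favours that group. Replicates differed by more than sampling noise (chi-square per degree of freedom 2.12 to 16.5 over 9 pairs). Alternatives were other normalizations and filters, DESeq2 1.42.0, subsets of groups, a replicate block and leaving out each library. The fit was tested on simulated data. Promoter sequences came from RefSeq on GRCm38.p6.

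The members and gene lists were chosen with earlier results of these data known. Genes were named by the following rule. It took up to 10 genes with the largest direct difference each way, up to 8 of each opposite class, up to 5 of each class with a smaller change and up to 6 nearest 0. It also took up to 4 per list by smallest p and a panel of 25 genes. Except for list and panel genes, the rule asked for a mean log2 CPM of at least 1 and no predicted genes. Except also for those nearest 0, the rule asked for a direct call and no overlap between AA and PGE2 libraries. List members named beyond it, and Hif1a, Khk, Tkfc and Wls, were chosen after their values were seen. The libraries of day 6 were not used here because that day has no PGE2 group. A few genes that met the rule are not reported here.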

Additional observations from a re-analysis of the deposited data

Results flagged for a closer look

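The difference between AA and PGE2 was tested for a change between day 1 and day 3 in 41 named genes, by edgeR's quasi-likelihood test of the interaction, and passed in 19. All values are log2 differences, AA minus PGE2, with the SE of the change and 3 libraries per group and day. The direct test at day 3 is part of this contrast, so the changes are not independent of the values at day 3.

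Genes whose difference moved towards AA from day 1 to day 3 included those of low oxygen and sugar uptake. Slc16a3 stood at 2.10 at day 3 and -0.27 at day 1 (change 2.36 ± 0.428, adjusted p = 0.00340). Egln3 stood at 1.82 at day 3 and -0.13 at day 1 (change 1.95 ± 0.209, adjusted p = 3.1e-05). Ankrd37 stood at 1.69 at day 3 and 0.088 at day 1 (change 1.6 ± 0.365, adjusted p = 0.00610). Slc2a5 stood at 1.74 at day 3 and 0.69 at day 1 (change 1.05 ± 0.264, adjusted p = 0.0144). Upk3b, a uroplakin, stood at 1.95 at day 3 and -1.35 at day 1 (change 3.3 ± 0.956, adjusted p = 0.0241). The difference of Upk3b at day 1 did not itself pass (SE 0.888, adjusted p = 0.286). Its mean levels at day 3 were low, at 6.01 CPM with AA and 1.53 CPM with PGE2. Isx stood at 1.34 at day 3 and -0.17 at day 1 (change 1.51 ± 0.353, adjusted p = 0.00484). Lyz1 stood at 0.067 at day 3 and -0.60 at day 1 (change 0.664 ± 0.107, adjusted p = 0.000214). Scd2 stood at -0.077 at day 3 and -0.70 at day 1 (change 0.627 ± 0.0995, adjusted p = 0.000104). Ly6a stood at -0.19 at day 3 and -0.57 at day 1 (change 0.383 ± 0.0969, adjusted p = 0.0120). Il33 stood at -2.13 at day 3 and -2.48 at day 1 (change 0.347 ± 0.113, adjusted p = 0.0477).

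Genes whose difference moved towards PGE2 included those of goblet cells. Tff3 stood at -1.74 at day 3 and -0.99 at day 1 (change -0.748 ± 0.129, adjusted p = 0.000945). Fcgbp stood at -1.62 at day 3 and -0.80 at day 1 (change -0.822 ± 0.136, adjusted p = 0.000771). Muc2 stood at -1.99 at day 3 and -0.97 at day 1 (change -1.02 ± 0.272, adjusted p = 0.0320). Krt15 stood at -1.17 at day 3 and -0.16 at day 1 (change -1 ± 0.268, adjusted p = 0.0138). Csf1 stood at -1.19 at day 3 and 0.58 at day 1 (change -1.76 ± 0.299, adjusted p = 0.000137). Hpgd stood at -0.67 at day 3 and 0.51 at day 1 (change -1.17 ± 0.211, adjusted p = 0.000542). Angptl4 stood at -0.64 at day 3 and -0.23 at day 1 (change -0.409 ± 0.108, adjusted p = 0.0135). Cpt1a stood at 0.36 at day 3 and 0.64 at day 1 (change -0.277 ± 0.0799, adjusted p = 0.0230). Pdk4 stood at -0.43 at day 3 and 1.93 at day 1 (change -2.36 ± 0.603, adjusted p = 0.00968).

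Pdk4 was under 1 CPM in all libraries of day 3, and Csf1 and Hpgd were called on both days with opposite signs.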

How the results depend on the processing

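Among the values of named genes under the alternatives, 2825 kept their side of the threshold and 10 fell short of it (all of Ly6a, adjusted p 0.0535 to 0.176). Of genes called, 0 turned direction. Genes not called could change sign, as Alpi (-0.053 to 0.11) and Chga (-0.33 to 0.014) did. The count of genes above vehicle with AA and below it with PGE2 was 53 with total counts alone in place of TMM, where the cause was not tested. The count of the reverse class was 22 with no low-count filter, 21 with the DESeq2 Wald test and 21 with only the libraries of day 3, where fewer libraries enter. Of the genes of these classes in the main analysis, 50 to 82 and 19 to 38 kept their class over 17 settings. Leaving out each library in turn gave 4837 to 6123 direct calls at day 3 and 3349 to 3494 at day 1. It gave 5596 to 6026 calls for AA and 8021 to 8924 for PGE2 against vehicle, and 1116 to 1855 for the change between days. By class it gave 60 to 84 and 20 to 38 genes on opposite sides of vehicle (AA higher and PGE2 higher), 1918 to 2445 and 143 to 215 on the same side with less change with AA and with PGE2, and 295 to 481 and 1842 to 2405 called for AA alone and for PGE2 alone.

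The labels do not say whether same-numbered libraries were paired. Deviations of same-numbered libraries correlated at -0.083 to 0.055 over 9 pairs of libraries from different groups of day 3. The own number was highest in 3 of 9. With 3 libraries per group these correlations cannot settle whether the samples were paired. With the replicate number as a block, 2634 genes were higher with AA and 2987 with PGE2, and the opposite classes held 80 and 38 genes. Depth limits genes near 1 CPM, such as Pdk4, Cd36 and Dlc1, where single libraries hold few reads.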
